A study of Homo sapiens with 10 samples.

Results

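Transcripts of HAP1 clones lacking both OGG1 and MUTYH (double knockout, DKO, clones C4 and C14) were compared with those of clones lacking MUTYH alone (MUTYH knockout, clones C7 and C8). The samples were chosen by genotype from the labels and gave 4 of the 10 RNA-seq libraries of the series, 2 per genotype. The comparison asks how gene expression differs when OGG1 is missing in addition to MUTYH. The other untreated libraries, from OGG1 knockout clones C1 and C22 and wild-type (WT) clones C2 and C11, entered the same model, and the remaining 2 came from WT cells 24 hours after treatment with 100 µM H2O2 and were not used here.

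All cells were HAP1, a near-haploid human line derived from the KBM-7 leukaemia line, and all knockouts were made by CRISPR-Cas9. None of the 8 libraries used came from treated cells. Each library was 1 clone, so the 2 libraries of a genotype carry the spread between clones as well as that between cultures. According to the study's supplement, both DKO clones were derived from an OGG1 knockout clone and not from a MUTYH knockout clone. This parent is taken here to be the clone labelled C22, because its product number ends alike. Loss of OGG1 and descent from that clone cannot be told apart in the comparison of DKO with the MUTYH knockout.

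OGG1 and MUTYH are DNA glycosylases that act on 8-oxoguanine, an oxidised guanine that can pair with adenine. OGG1 removes 8-oxoguanine opposite cytosine, and MUTYH removes the adenine that was placed opposite 8-oxoguanine during replication. Both start base excision repair, in which an endonuclease, a polymerase and a ligase then restore the strand.

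The guide RNA that marks OGG1 loss in both DKO clones is shown because it defines what the DKO cells lack beyond MUTYH. It was matched to the minus strand of GRCh38 at chr3:9750311-9750330, within the coding part of exon 1 of OGG1, which lies on the plus strand. In the sequence the capitals mark the protospacer adjacent motif (PAM), which the genome supplies next to the guide.
OGG1 guide: gtacgatgccccatgcgcctGGG
Cas9 cuts close to the PAM, which here puts the cut after coding base 27. The supplement gives small deletions at this site in both DKO clones, and such a deletion need not remove the transcript.

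The OGG1 transcript was still counted in both genotypes, and counts over the whole gene do not read a small deletion, so they check the labels only weakly. OGG1 had 9.75 and 9.80 CPM, the count scaled to the effective size of its library, in DKO C4 and C14, and 14.5 and 13.8 CPM in MUTYH knockout C7 and C8. Both DKO libraries lay below both MUTYH knockout libraries, but the log2 fold change of -0.53 ± 0.75 (SE) gave an edgeR adjusted p of 1.00. The SE of OGG1 includes the spread between OGG1 knockout C1 and C22, at 1.23 and 11.2 CPM. OGG1 overlaps CAMK1 and TADA3, and the strand setting of the counting is not stated. MUTYH, lacking in both genotypes, had 4.81 and 2.198 CPM in DKO C4 and C14 and 4.70 and 3.65 CPM in MUTYH knockout C7 and C8. The groups overlapped for MUTYH, which shares its locus with TOE1.

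The 4 libraries held 22238731 to 22458937 counts, so that 3 counts, the level treated as the floor of detection, equalled 0.132 to 0.140 CPM. The labelled line comes from a leukaemia, but most blood cell markers were near 0. The 5 mesenchymal markers VIM, CDH2, FN1, ZEB1 and TWIST1 summed to 550 to 796 CPM, with none called. Of 12 blood cell markers 5 were tested, with a summed level of 39.96 to 73.7 CPM, and PTPRC, SPI1, GATA1, CD33, MPO, CD3E and HBG1 did not pass the filter on low counts. CD34 was called higher in DKO, at 1.04 and 0.659 CPM in C4 and C14 against 0.186 and 0.220 CPM in C7 and C8. KIT was not called, at 8.44 and 3.91 CPM in C4 and C14 against 8.47 and 18.4 CPM, and neither were TAL1 and LYL1, whose groups overlapped. The 3 tested epithelial markers (EPCAM, KRT8 and KRT18, of 5 listed) summed to 96.0 and 91.3 CPM in DKO C4 and C14 and to 68.9 and 44.5 CPM in C7 and C8. EPCAM was called higher, with 2.99 and 2.02 CPM in C4 and C14 against 0.140 and 0.528 CPM in C7 and C8. CDH1 and KRT19 did not pass the filter. Fewer cells of a type and less RNA per cell cannot be told apart in these bulk samples. The part of these marker differences in the results below was not tested.

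DKO differed from the MUTYH knockout mainly in weakly expressed genes, and mostly towards higher levels in DKO. Of 17881 genes tested, 355 were differentially expressed genes (DEGs), with a raw P no higher than 0.05 and a difference of more than 1 on the log2 scale in either direction, which was 1.99% of those tested. In DKO 267 were higher (1.49% of genes tested) and 88 lower (0.492%), and 75.2% of the DEGs were thus higher. The median log2 fold change was 1.68 for the higher DEGs and -1.96 for the lower ones, against -0.01 over all genes tested. The DEGs were expressed at a median of 1.46 CPM in DKO and 0.680 CPM in the MUTYH knockout, against 16.5 CPM in DKO for all tested genes. Of the DEGs, 256 (72.1%) had a mean below 5 CPM in both genotypes, against 33.9% of all genes tested. The 99 DEGs at 5 CPM or above comprised 67 higher and 32 lower.

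After adjustment for the number of genes, 1 gene passed in edgeR, THSD7B, which was 0.00559% of genes tested. At a raw P no higher than 0.05 there were 614 genes, 410 of them higher in DKO, where independent tests of unchanged genes would give 894. The 2 DKO libraries did not overlap the 2 MUTYH knockout libraries for 351 of the 355 DEGs, which the choice by P largely fixes, and for 28% of all tested genes.

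The libraries can also be compared within 2 pairs, C4 with C7 and C14 with C8, since a split found in the data, and named in no label, put these libraries on the same side. Between C4 and C7, 1355 genes differed by more than 1 on the log2 CPM scale, and between C14 and C8 1093 genes did. In all, 275 genes did so in both pairs in the same direction, and 150 did so in opposite directions. Of the DEGs, 213 exceeded 1 in both pairs in the same direction. Across the 17881 genes the differences of the pairs correlated with a Pearson r of 0.214, where genes are not independent replicates. Differences of over 2-fold between the clones of 1 genotype were at least as frequent, with 1450 genes in DKO and 1625 in the MUTYH knockout.

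**Figure D1:**
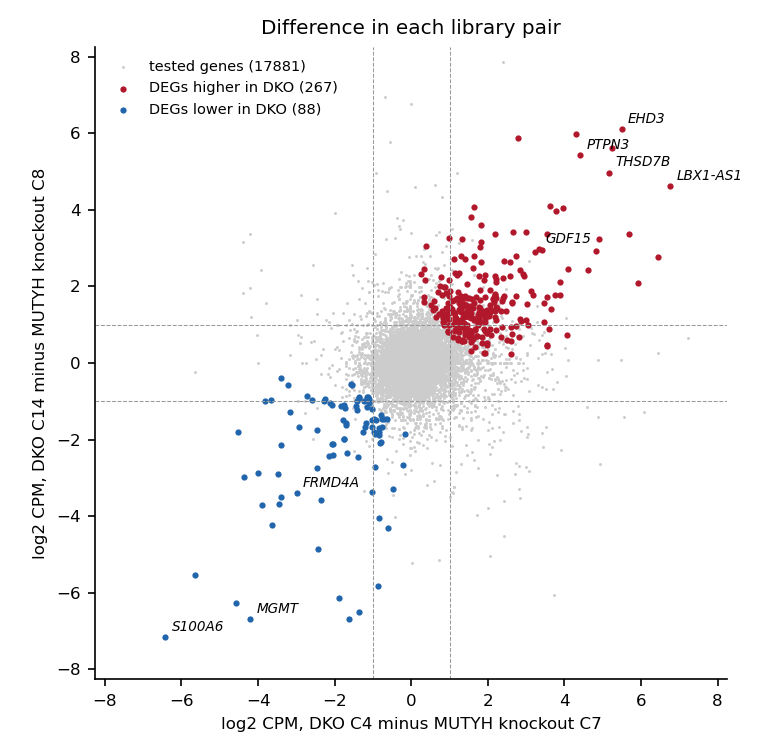
Difference between DKO and MUTYH knockout in log2 CPM for each tested gene, C4 minus C7 on the horizontal and C14 minus C8 on the vertical axis, with DEGs in red (267, higher in DKO) and blue (88, lower). Dashed lines mark a difference of 1 in either direction, and grey points off the diagonal are genes in which the pairs differed from each other.

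The gene with the smallest P was THSD7B, which encodes a thrombospondin-domain membrane protein (GRCh38 chromosome 2, 136765545 to 137677718, overlapping RNA5SP105). THSD7B had 254 and 219 counts in DKO C4 and C14 but 5 and 5 in MUTYH knockout C7 and C8. Expressed as CPM, this was 11.5 and 9.63 against 0.233 and 0.220. The log2 fold change was 5.51 ± 0.34 (SE), at an adjusted p in edgeR of 0.00950. THSD7B was likewise expressed in WT C2 and C11 (10.1 and 8.51 CPM) and in OGG1 knockout C1 and C22 (4.61 and 6.06 CPM), so the MUTYH knockout clones were the 2 libraries that stood apart. Leaving out any 1 of the 4 libraries ended the call of THSD7B at an adjusted p of 0.05, at adjusted p values in edgeR of up to 0.0964, the value without MUTYH knockout C8.

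A set of genes shared a low level in the MUTYH knockout, with WT nearer to DKO than to the MUTYH knockout. PTPN3, a protein tyrosine phosphatase (chromosome 9, 109375466 to 109498313), had 23.5 and 20.9 CPM in DKO C4 and C14 and 1.02 and 0.396 CPM in MUTYH knockout C7 and C8. Its log2 fold change was 4.96 ± 0.57 (SE, adjusted p in edgeR of 0.177), and WT C2 and C11 had 6.30 and 14.1 CPM. PTPN3 was also higher in DKO than in WT, by 1.12 ± 0.46 on the log2 scale (SE, unadjusted P in edgeR of 0.0423). LBX1-AS1, a long non-coding RNA (chromosome 10, 101229577 to 101270148, overlapping LINC02681), had 212 and 246 counts in DKO and 0 and 8 counts in the MUTYH knockout, and its level in WT C2 and C11 was 8.65 and 8.78 CPM. The 6 libraries outside the MUTYH knockout thus held at least 174 counts of LBX1-AS1, and its log2 fold change was 5.79 ± 0.76 (SE, adjusted p in edgeR of 0.216), or 10.83 without C8, the MUTYH knockout library with 8 counts. ZNF329, a zinc finger protein, had 6.89 and 6.16 CPM in DKO C4 and C14, 0.652 and 0.748 CPM in MUTYH knockout C7 and C8, and 2.97 and 6.01 CPM in WT C2 and C11.

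The connexin gene GJA3, the synaptotagmin gene SYT6 and the early growth response factor EGR1 also had WT libraries nearer to DKO than to the MUTYH knockout, with smaller differences. GJA3 had 9.39 and 9.94 CPM in DKO C4 and C14, 3.77 and 3.92 CPM in C7 and C8, and 6.74 and 6.64 CPM in WT C2 and C11. SYT6 had 7.39 and 5.85 CPM in DKO C4 and C14, 2.05 and 1.81 CPM in C7 and C8, and 4.13 and 5.12 CPM in WT C2 and C11. OGG1 knockout C1 and C22 had 2.97 and 1.90 CPM of SYT6, nearer to the MUTYH knockout, as they were for EGR1. The log2 fold changes were 1.33 ± 0.22 (SE) for GJA3 and 1.78 ± 0.33 (SE) for SYT6, at adjusted p values in edgeR of 0.643 and 0.728. PRTG, a neural cell adhesion protein, had 20.2 and 11.7 CPM in DKO C4 and C14 against 3.30 and 2.33 CPM in C7 and C8, with WT C2 and C11 between them at 6.03 and 9.09 CPM.

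A further set was high in DKO and low in both the MUTYH knockout and WT. GDF15, a stress-induced cytokine of the TGF-beta family (chromosome 19, 18374731 to 18389176, overlapping MIR3189), had 6.44 and 4.44 CPM in DKO C4 and C14 and 0.559 and 0.484 CPM in MUTYH knockout C7 and C8. WT C2 and C11 had 0.444 and 0.356 CPM of GDF15, and OGG1 knockout C1 and C22 had 0.868 and 1.33 CPM. Its log2 fold change was 3.37 ± 0.40 (SE, adjusted p in edgeR of 0.177). INHBE, the inhibin beta E subunit (chromosome 12, 57452323 to 57459280), had 2.86 and 2.37 CPM in DKO against 0.465 and 0.440 CPM in the MUTYH knockout, a log2 fold change of 2.52 ± 0.37 (SE, adjusted p in edgeR of 0.380). DNAH3, an axonemal dynein heavy chain whose gene overlaps LDAF1, had 52 and 45 counts in DKO and 3 to 7 counts in each of the other 6 libraries.

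DHRS2, a short-chain dehydrogenase, was higher in DKO than in every other library. DHRS2 had 13.8 and 11.3 CPM in C4 and C14, 4.002 and 2.25 CPM in C7 and C8, and 1.38 to 2.10 CPM in the WT and OGG1 knockout libraries. IRAK3, a negative regulator of Toll-like receptor signalling, had 72 and 41 counts in DKO C4 and C14 and 1 and 6 counts in MUTYH knockout C7 and C8, with 19 and 20 counts in WT C2 and C11. The log2 fold changes were 2.005 ± 0.34 (SE) for DHRS2 and 3.96 ± 0.75 (SE) for IRAK3, at adjusted p values in edgeR of 0.698 and 0.728.

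Among the genes lower in DKO, FRMD4A had the smallest P. It encodes a FERM-domain scaffold protein of cell polarity (chromosome 10, 13643706 to 14462142) and overlaps PRPF18 and several small RNA genes. FRMD4A had 1.04 and 1.14 CPM in DKO C4 and C14 and 8.94 and 12.9 CPM in MUTYH knockout C7 and C8. The level was 1.28 and 1.02 CPM in OGG1 knockout C1 and C22 and 6.39 and 6.64 CPM in WT C2 and C11. All 4 libraries that lack OGG1 were thus below all 4 that have it. The log2 fold change of FRMD4A in DKO against the MUTYH knockout was -3.32 ± 0.31 (SE), at an adjusted p in edgeR of 0.0925.

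MGMT, which reverses O6-methylguanine in DNA (chromosome 10, 129467190 to 129770983), had 7 and 1 counts in DKO C4 and C14 and 160 and 309 counts in MUTYH knockout C7 and C8. OGG1 knockout C1 and C22 had 17 counts each, and WT C2 and C11 had 3.28 and 4.59 CPM, against 7.45 and 13.6 CPM in C7 and C8. MGMT again ran below WT in every library lacking OGG1 and above it in both MUTYH knockout libraries. Its log2 fold change was -5.83 ± 0.69 (SE, adjusted p in edgeR of 0.177), and it ranged from -7.73 without DKO C4 to -5.05 without DKO C14. MGMT was the 1 DEG among 11 tested genes of direct reversal and mismatch repair, where 1.99% of all tested genes were called. The other members of this list had log2 fold changes of at most 0.65 in size.

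The zinc finger regulator PRDM16 (chromosome 1, 3069168 to 3438621) and the divergent long non-coding RNA beside it, PRDM16-DT (3059611 to 3069091), were lower together. PRDM16 had 1.497 and 3.21 CPM in DKO C4 and C14 and 17.5 and 24.4 CPM in MUTYH knockout C7 and C8. PRDM16-DT had 0.408 and 0.440 CPM in DKO C4 and C14 and 5.21 and 5.94 CPM in C7 and C8. Both had log2 fold changes below -3, at -3.15 ± 0.56 (SE) and -3.70 ± 0.68 (SE), at adjusted p values in edgeR of 0.728 each.

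SDK1, a homophilic adhesion protein, NPR3, the natriuretic peptide clearance receptor, and CYTOR, a long non-coding RNA, were highest in the MUTYH knockout. SDK1 had 0.544 and 1.58 CPM in DKO C4 and C14, 10.1 and 12.2 CPM in C7 and C8, and 4.44 and 2.76 CPM in WT C2 and C11. NPR3 had 7 and 4 counts in DKO C4 and C14, 45 and 173 counts in C7 and C8, and 8 and 10 counts in WT C2 and C11. CYTOR had 2.27 and 1.76 CPM in DKO C4 and C14, 7.82 and 7.26 CPM in C7 and C8, and 3.33 and 2.41 CPM in WT C2 and C11. For NPR3 and CYTOR the WT libraries were nearer to DKO than to the MUTYH knockout, as were the OGG1 knockout libraries. ZYG11A, a substrate receptor of a ubiquitin ligase, was lowest in DKO, at 0.680 and 0.791 CPM in C4 and C14 against 5.77 and 2.73 CPM in C7 and C8 and 2.40 and 2.41 CPM in WT.

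**Figure D2:**
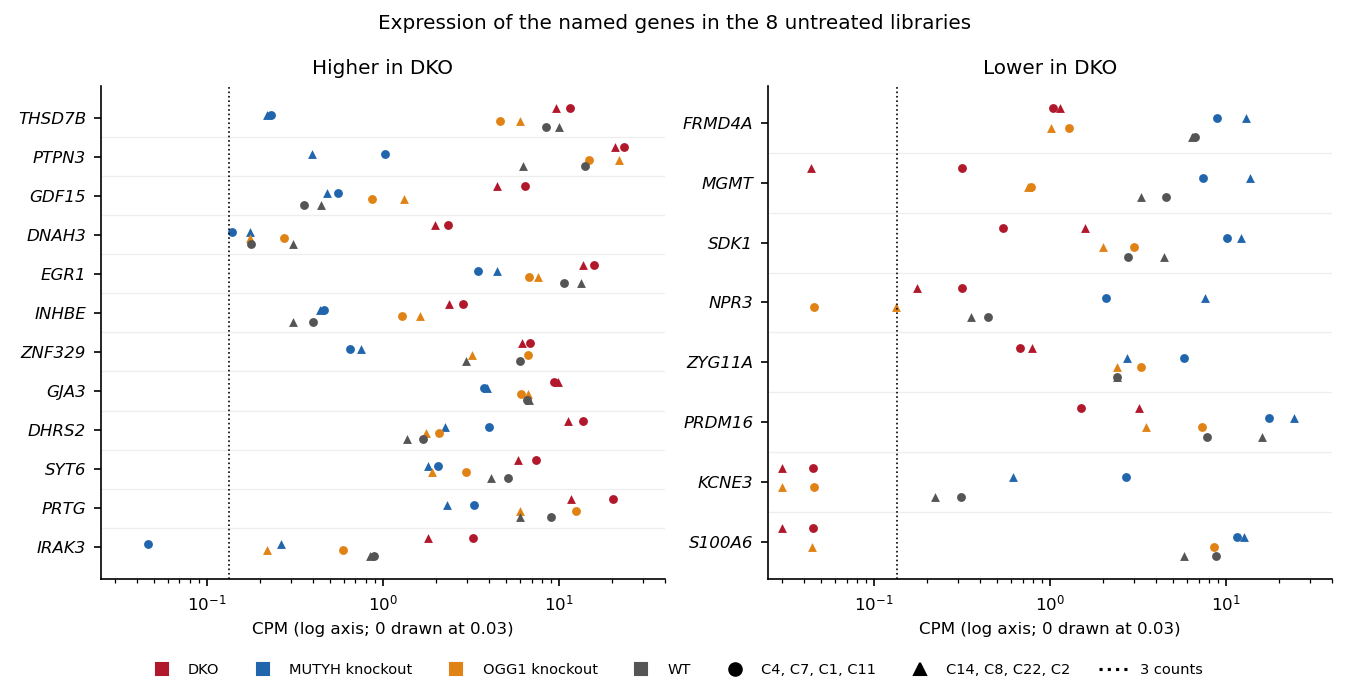
CPM of the 12 higher and 8 lower protein-coding genes with the smallest P, on a log axis, in each of the 8 untreated libraries. Colours give the genotype, circles and triangles the side of the library split, and the dotted line marks 3 counts. THSD7B, PTPN3 and ZNF329 are low in the MUTYH knockout alone, DNAH3 and DHRS2 are high in DKO alone, and S100A6 is near 0 in DKO and in OGG1 knockout C22.

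The WT and OGG1 knockout libraries took no part in the direction of the comparison, and their position between the genotypes is given as a description. Of the 12 named higher genes, both WT libraries were nearer in log2 CPM to DKO for 7 and nearer to the MUTYH knockout for 4. Of the 8 named lower genes, both WT libraries were nearer to DKO for 1 and nearer to the MUTYH knockout for 5. Over all DEGs the MUTYH knockout was the nearer genotype more often. Both WT libraries were nearer to it for 124 of the 267 higher and 41 of the 88 lower DEGs, and nearer to DKO for 66 and 17. WT C2 was nearer to DKO for 43.4% of the DEGs and WT C11 for 33.5%, against 50.2% and 41.2% of all tested genes.

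The OGG1 knockout clones differed from each other in this respect. C22 was nearer to DKO for 213 of the 355 DEGs and C1 for 154, or 43.4%. Over all tested genes C22 was nearer to DKO in 54.7% and C1 in 45.0%. For the lower DEGs the shares were 67.0% in C22 and 40.9% in C1. For 94 DEGs (26.5%) C22 was nearer to DKO and C1 to the MUTYH knockout, and the reverse held for 35 (9.86%). Both shares were below those of all tested genes, which were 33.5% and 23.8%. Over all tested genes DKO C14 correlated with OGG1 knockout C22 with a Pearson r of log2 CPM of 0.985, above its r of 0.979 with DKO C4, while DKO C4 had an r of 0.970 with C22. C14, C22, MUTYH knockout C8 and WT C2 lie on the same side of the library split, and C14 also had an r of 0.980 with C8. For C14 alone, descent from C22 and the side of the split cannot be told apart, whereas C4 lies on the other side.

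Several genes were near 0 in one genotype, and some of these were also near 0 in an OGG1 knockout clone. Of the DEGs, 13 had at most 3 counts in both DKO libraries. Of these 13, 9 also had at most 3 counts in OGG1 knockout C22 and 5 in C1, while 8 were above 3 counts in both WT libraries. The shares of all tested genes at or under 3 counts in C22 or C1 were not computed, so these counts are a description only. S100A6, a calcium-binding protein (chromosome 1, 153534599 to 153536244), had 1 and 0 counts in DKO C4 and C14 and 247 and 288 in MUTYH knockout C7 and C8. It had 1 count in OGG1 knockout C22 but 187 in C1, and 130 and 197 in WT C2 and C11. The ratio of the summed S100A6 counts of the MUTYH knockout to those of DKO was 534, with a 95% exact binomial interval from 95.5 to 21140 that covers counting error only. KCNE3, a potassium channel subunit, had 1 and 0 counts in DKO C4 and C14, 58 and 14 in C7 and C8, and 1 and 0 in OGG1 knockout C1 and C22.

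The following genes were chosen after their values were seen, as examples in which C22 resembled DKO and C1 the MUTYH knockout. Not all of them were at or under 3 counts in a genotype. CTSF, a lysosomal cysteine protease, had 2.13 and 0.879 CPM in DKO and 1.86 CPM in C22, against 110.5 and 45.0 CPM in the MUTYH knockout, 100.1 CPM in C1 and 30.8 and 76.0 CPM in WT. The level of CTSF in C1 lay within the range of the MUTYH knockout, and that in C22 did not.

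The remaining examples were higher in DKO. HCLS1, a haematopoietic cortactin-like protein, had 64.5 and 55.9 CPM in DKO C4 and C14 and 51.8 CPM in OGG1 knockout C22, but 4.65 and 3.48 CPM in the MUTYH knockout and 3.20 CPM in C1, with 15.6 and 8.86 CPM in WT. EHD3, an endocytic recycling protein, had 133 and 277 counts in DKO and 181 in C22, but 1 and 2 in the MUTYH knockout, 0 in C1 and 1 and 18 in WT. PTGIS, prostacyclin synthase, had 21 and 19 counts in DKO and 21 in C22, 0 in both MUTYH knockout libraries, 0 in C1 and 3 and 1 in WT. PTGIS was at least 13.4-fold higher in DKO, as computed against 3 counts over the MUTYH knockout libraries. Of the 24 DEGs with at most 3 counts in both MUTYH knockout libraries, 12 were also at or under 3 counts in C1, 4 in C22 and 8 in both WT libraries. The shares of all tested genes were not computed here either.

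The difference between DKO and the MUTYH knockout was next set beside that between the OGG1 knockout and WT, where MUTYH is intact. These comparisons share no library, but both DKO clones descend from an OGG1 knockout clone, taken to be C22, that is also in the second comparison. Both also come from the same fit, which gives each gene a shared estimate of its spread, so their calls are not independent. The OGG1 knockout gave 299 DEGs against WT (1.67% of genes tested), and 51 genes were called in both, which was 14.4% of the DEGs of DKO against the MUTYH knockout and 17.1% of those of the OGG1 knockout. Of these 51, 36 had the same direction (24 higher and 12 lower) and 15 the opposite. Of the 355 DEGs, 61.7% had the same sign in the OGG1 knockout, against 54.4% of all tested genes. Across the 17881 genes the log2 fold changes correlated with a Pearson r of 0.112 and a Spearman rho of 0.0997.

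The relation depended on the libraries that were paired. The difference of DKO C14 and MUTYH knockout C8 correlated across genes with that of OGG1 knockout C22 and WT C2 (r = 0.289) and of C1 and WT C11 (r = 0.140). The difference of DKO C4 and MUTYH knockout C7 had an r of -0.153 and -0.0947 with the same pairs. The sign of the correlation across genes thus differed between the 2 pairs of DKO and MUTYH knockout clones.

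FRMD4A, INHBE, MGMT, EPHA6 and GDF15 were the 5 genes named among those called in both comparisons. In the OGG1 knockout against WT, FRMD4A had a log2 fold change of -2.50 ± 0.31 (SE), MGMT one of -2.36 ± 0.57 (SE), INHBE one of 2.02 ± 0.38 (SE) and GDF15 one of 1.44 ± 0.41 (SE). These had the direction seen in DKO against the MUTYH knockout. INHBE had 28 and 37 counts in OGG1 knockout C1 and C22 and 7 and 9 counts in WT C2 and C11, so it was higher in all 4 libraries lacking OGG1 than in all 4 that have it. GDF15 likewise had 19 and 30 counts in the OGG1 knockout and 10 and 8 in WT, against 142 and 101 in DKO and 12 and 11 in the MUTYH knockout.

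EPHA6, an ephrin receptor (chromosome 3, 96814581 to 97761532, overlapping TPTE2P7), had opposite directions in the 2 comparisons. It had 78 and 57 counts in DKO and 13 and 16 in the MUTYH knockout, but 4 and 7 counts in OGG1 knockout C1 and C22 and 45 and 14 in WT C2 and C11. Its log2 fold change was 2.195 ± 0.58 (SE) in DKO against the MUTYH knockout and -2.38 ± 0.65 (SE) in the OGG1 knockout against WT.

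**Figure D3:**
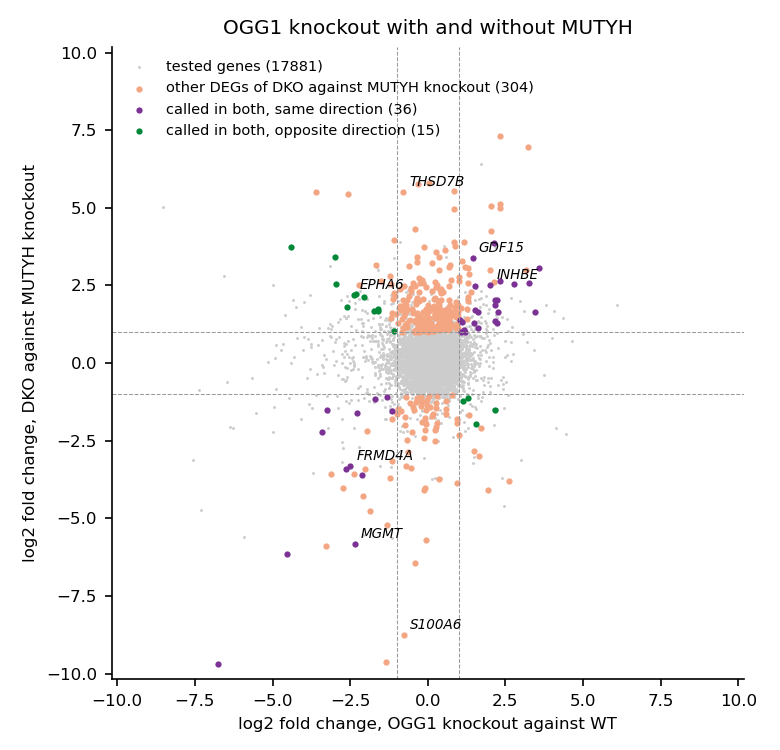
Log2 fold change of each tested gene in OGG1 knockout against WT (horizontal) and in DKO against MUTYH knockout (vertical), with dashed lines at 1 in either direction. Purple marks the 36 genes called in both comparisons in the same direction and green the 15 called in opposite directions.

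Whether the difference between DKO and the MUTYH knockout itself differed from that between the OGG1 knockout and WT was tested as an interaction. It called 358 genes (2% of those tested), 252 of them with a more positive difference in cells lacking MUTYH and 106 with a more negative one. The count was 216 without WT C2, 795 without WT C11 and 646 without MUTYH knockout C8. At a raw P no higher than 0.05 there were 469 genes, where independent tests of unchanged genes would give 894. After adjustment 1 gene passed. That gene was THSD7B, with an interaction of 6.31 ± 0.43 on the log2 scale (SE, adjusted p in edgeR of 0.0179).

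EGR1, MET, LBX1-AS1 and SYT6 had the next smallest P values in the interaction. EGR1 was higher in DKO than in the MUTYH knockout but lower in the OGG1 knockout (6.81 and 7.61 CPM in C1 and C22) than in WT (13.4 and 10.7 CPM in C2 and C11), and its interaction was 2.63 ± 0.34 (SE, adjusted p in edgeR of 0.811). MET, the receptor of hepatocyte growth factor, had 89.3 and 105.3 CPM in DKO C4 and C14 and 56.1 and 57.8 CPM in MUTYH knockout C7 and C8. The OGG1 knockout libraries C1 and C22 had 41.3 and 37.6 CPM of MET and WT C2 and C11 had 54.0 and 61.9 CPM. MET did not reach the fold threshold in DKO against the MUTYH knockout, at 0.77 ± 0.15 (SE), and its interaction was 1.33 ± 0.21 (SE, adjusted p in edgeR of 1.00).

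Genes of cholesterol synthesis and its regulators had, for all but 1 tested member, a negative difference between DKO and the MUTYH knockout. These genes respond to SREBP transcription factors, which are released from the endoplasmic reticulum when sterols are scarce. Of 27 tested members, 26 had a negative log2 fold change, between -0.90 and -0.06. The list median was -0.39, against -0.01 over all tested genes, of which 48.8% had a positive value. None was a DEG, where 1.99% of all tested genes were called. At a raw P no higher than 0.05, 8 were lower, as were 1.14% of all tested genes. Both DKO libraries were below both MUTYH knockout libraries for 14 members, and for 14% of all tested genes. The list median was -0.43 in C4 minus C7 and -0.28 in C14 minus C8. The median ranged from -0.59 without MUTYH knockout C8 to -0.24 without MUTYH knockout C7.

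MVD, HMGCS1 and INSIG1 were among these 8 and were chosen as examples after their values were seen. MVD, the mevalonate diphosphate decarboxylase, had 37.5 and 33.4 CPM in DKO C4 and C14 and 65.7 and 66.3 CPM in MUTYH knockout C7 and C8. HMGCS1, which makes HMG-CoA, had 150.9 and 165.7 CPM in DKO against 259.2 and 263.3 CPM in the MUTYH knockout. INSIG1, which retains SREBP in the endoplasmic reticulum, had 43.99 and 47.8 CPM in DKO against 82.98 and 87.0 CPM in the MUTYH knockout. The log2 fold changes were -0.90 ± 0.18 (SE) for MVD, -0.72 ± 0.24 (SE) for HMGCS1 and -0.89 ± 0.31 (SE) for INSIG1, and the edgeR adjusted p values were 0.753, 1.00 and 1.00.

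**Figure D4:**
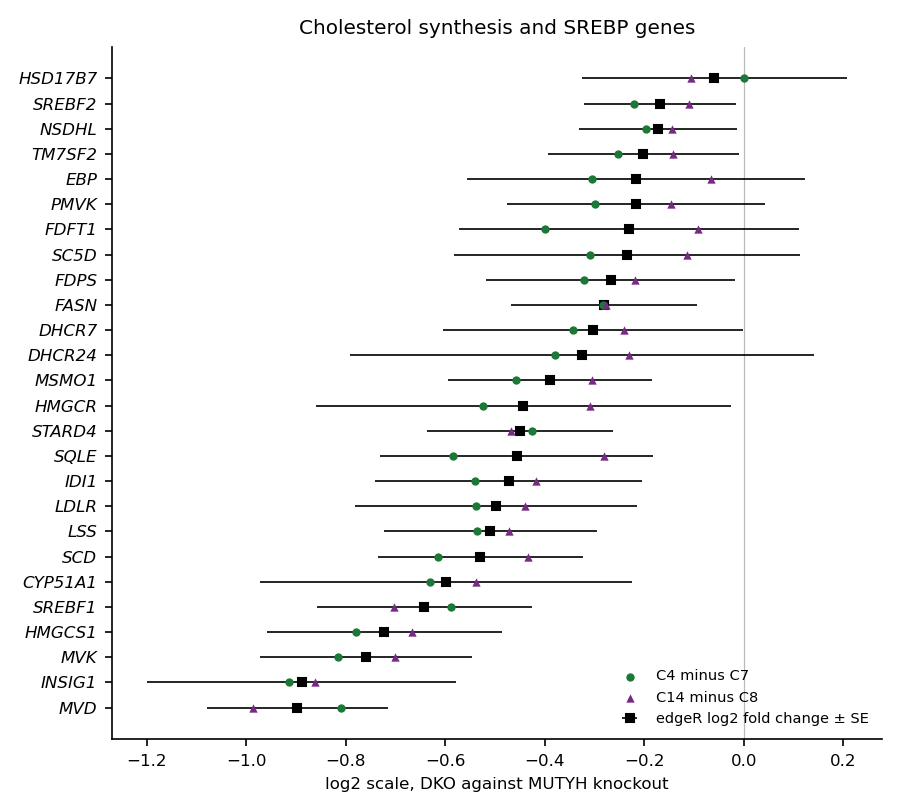
Log2 fold change of DKO against MUTYH knockout with its SE (squares) and the difference in log2 CPM in each library pair (circles, C4 minus C7, and triangles, C14 minus C8) for 26 of the 27 tested genes of cholesterol synthesis and SREBP regulation. All fold changes shown lie below 0, and none passes the fold threshold with P at most 0.05.

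Genes of the integrated stress response, which ATF4 induces when translation initiation is slowed, had mostly positive differences between DKO and the MUTYH knockout. Of 36 tested members 29 had a positive log2 fold change, with a median of 0.19. The list was not raised above both WT libraries in summed level. It summed to 4927 and 5094 CPM in DKO C4 and C14, 4720 and 4385 CPM in C7 and C8, and 5507 and 4692 CPM in WT C2 and C11. In the OGG1 knockout against WT its median was -0.05. Both DKO libraries were above both MUTYH knockout libraries for 15 members, and for 14% of all tested genes. GDF15 and INHBE were the 2 DEGs, where 1.49% of all tested genes were called higher. The pair C14 and C8 gave a median of 0.25 and the pair C4 and C7 one of 0.11, and the list median was 0.30 without DKO C4 and 0.08 without DKO C14. CHAC1, which degrades glutathione, had 11.7 and 17.2 CPM in DKO C4 and C14 and 5.45 and 7.79 CPM in MUTYH knockout C7 and C8, and asparagine synthetase, ASNS, had 3.76 and 3.78 CPM against 1.96 and 2.29 CPM. Neither was called, with unadjusted P values of 0.0995 and 0.0863 in edgeR.

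The promoters of these genes were searched for the C/EBP-ATF response element, since most members had differences of the same sign. The letters TGATGNAA were searched on both strands in the 250 bases before the start of each gene in the RefSeq promoters of GRCh38.p14. Of 31 list members with a promoter 4 held the letters (12.9%), against 3.19% of 27305 promoters. The promoters of GDF15 and INHBE were not among the 4. The matches are shown with their flanks in the direction of the gene, with the element in capitals, which reads as its reverse complement in AARS1 and CHAC1.
ASNS: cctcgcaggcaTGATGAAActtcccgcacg
ATF3: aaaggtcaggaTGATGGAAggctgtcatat
AARS1: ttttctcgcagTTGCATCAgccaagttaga
CHAC1: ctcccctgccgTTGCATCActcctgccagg
They lie at chr7:97872458-97872487 (minus strand), chr1:212565205-212565234 (plus), chr16:70289675-70289704 (minus) and chr15:40953251-40953280 (plus). The log2 fold changes of these genes were 0.83 for ASNS, 0.53 for ATF3, 0.15 for AARS1 and 1.12 for CHAC1, and none was a DEG. The same search for the sterol element TCACNCCAC found it in 1 of 20 cholesterol gene promoters, that of SREBF2, and in 0.88% of all promoters. The letters CCAAT were in 16 of the 20 (80.0%), against 33.04% of all promoters. The stress response list was drawn up as genes that ATF4 induces, and the cholesterol list as genes that respond to SREBP. These shares thus describe the lists and not the difference between DKO and the MUTYH knockout.

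Immediate early genes, which growth factors and stress induce within minutes, had a median log2 fold change of 0.19, and 19 of 26 were positive, against 48.8% of all tested genes. EGR1, EGR2, FOS and FOSB were DEGs, all higher in DKO, where 1.49% of all tested genes were called higher. EGR1 had 350 and 311 counts in DKO C4 and C14 and 75 and 101 in MUTYH knockout C7 and C8, with a log2 fold change of 1.89 ± 0.25 (SE, adjusted p in edgeR of 0.216). EGR2 had 23 and 25 counts in DKO against 6 and 8, and FOS had 49 and 41 counts against 21 and 19. The call of FOS was lost without DKO C4, at a log2 fold change of 0.99, and without MUTYH knockout C8. FOSB had 89 and 52 counts in DKO C4 and C14 against 28 and 41. The call of FOSB was lost without DKO C4, at a log2 fold change of 0.55, without MUTYH knockout C7 or C8, with the 4 libraries alone, and with the library pairs as a block, at 0.97. The groups did not overlap for any of the 4 DEGs, which the choice by P largely fixes, nor for 28% of all tested genes. For EGR1 and FOS the WT libraries were nearer to DKO, whereas for EGR2 and FOSB they were nearer to the MUTYH knockout.

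Genes of base excision repair and of the oxidised nucleotide pool held 0 DEGs among 29 tested members, where 1.99% of all tested genes were called. Their median log2 fold change was -0.06, with 11 positive values. XRCC1, the scaffold of single-strand break repair, was the 1 member with a raw P no higher than 0.05 in edgeR. It had 34.6 and 28.4 CPM in DKO C4 and C14 and 45.9 and 41.3 CPM in MUTYH knockout C7 and C8, a log2 fold change of -0.47 ± 0.19 (SE). Both DKO libraries were below both MUTYH knockout libraries for 7 of the 29 members, XRCC1 included, and above them for 3, against 14% of all tested genes in each direction. The 7 included the flap endonuclease FEN1 (-0.31 ± 0.15, SE) and the endonuclease APEX1 (-0.13 ± 0.14, SE), while the groups overlapped for the polymerase POLB (0.13 ± 0.25, SE). The list of NRF2 targets held 0 DEGs among 22, against the same 1.99% of all tested genes, with a median of -0.11. NQO1, a quinone reductase and NRF2 target, fell just short of the fold threshold. It had 63.5 and 46.6 CPM in DKO C4 and C14 and 109.4 and 110.5 CPM in MUTYH knockout C7 and C8, a log2 fold change of -0.998 ± 0.20 (SE, adjusted p in edgeR of 0.753). WT C2 and C11 had 56.4 and 65.5 CPM of NQO1.

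The targets of p53 held 0 DEGs among 25 tested, with a median of 0.07. The same count was found for 17 scavenging enzymes for hydrogen peroxide and superoxide (-0.01), 31 DNA replication genes (-0.08) and 32 mitosis genes. It was also found for 28 glycolysis and hypoxia genes, 19 heat shock chaperones and 12 PRC2 subunits. Of all tested genes 1.99% were called, so 0 DEGs in lists of this size is near that share. The medians of these lists lay between -0.11 and 0.07. Leaving out 1 library turned the sign of several: the p53 median was -0.14 without DKO C14 and 0.26 without MUTYH knockout C8, that of the scavengers 0.12 without C4 and -0.19 without C14, and that of mitosis genes 0.06 without C4 and -0.20 without C14. The DNA replication median kept its sign, at -0.10 in C4 minus C7 and -0.11 in C14 minus C8, with 9 of 31 members positive. Both DKO libraries were below both MUTYH knockout libraries for 11 of these members and above them for 4. The share of all tested genes was 14% in each direction. All 13 mitochondrially encoded protein genes had positive values with a median of 0.25, but none had groups that did not overlap. That median was -0.22 without DKO C4 and -0.10 without MUTYH knockout C8. The mitochondrial share of counts was 7.46% in DKO C4 and 4.25% in DKO C14, against 6.10% in MUTYH knockout C7 and 3.75% in C8. The share thus followed the library pairs more than the genotypes, and within each pair it was higher in DKO. The median of the 13 protein genes was 0.27 in C4 minus C7 and 0.22 in C14 minus C8. Over all 37 tested mitochondrial genes these medians were 0.28 and -0.14.

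The remaining DEGs of the lists were matrix, guidance and interferon-related genes, and 1.99% of all tested genes were called. POSTN, the matrix protein periostin, was the 1 DEG among 30 matrix genes, with 140 and 74 counts in DKO C4 and C14 against 20 and 5. POSTN was also high in OGG1 knockout C1 and C22 (325 and 78 counts) and had 3 and 31 counts in WT C2 and C11. Of 39 guidance genes, SLIT1 was higher (92 and 70 counts in DKO C4 and C14 against 27 and 52) and SLIT3 lower (17 and 20 counts against 31 and 75). SLIT3 had 143 and 112 counts in WT C2 and C11, above both genotypes. The calls of POSTN, SLIT1 and SLIT3 were each lost without DKO C4. They were also lost without MUTYH knockout C8 for POSTN and SLIT3, without C14 for SLIT3, and without C7 or with the 4 libraries alone for SLIT1. Without MUTYH knockout C8 the log2 fold change of SLIT3 was -0.80, and without C7 that of SLIT1 was 0.66.

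IFITM1, an interferon-induced membrane protein, had 3.22 and 3.34 CPM in DKO C4 and C14 and 1.07 and 1.28 CPM in MUTYH knockout C7 and C8, a log2 fold change of 1.48 ± 0.39 (SE). STING1, the adaptor of cytosolic DNA sensing, had 247 and 140 counts in DKO C4 and C14 and 81 and 8 in MUTYH knockout C7 and C8. The call of STING1 was lost without C4, C14 or C8 and with the 4 libraries alone, and its log2 fold change was 1.20 without C8 and 4.597 without C7. These 2 were the DEGs among 27 tested interferon-stimulated and DNA-sensing genes, whose median was 0.01, with 14 positive values, where 1.99% of all tested genes were called and 48.8% were positive.

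**Figure D5:**
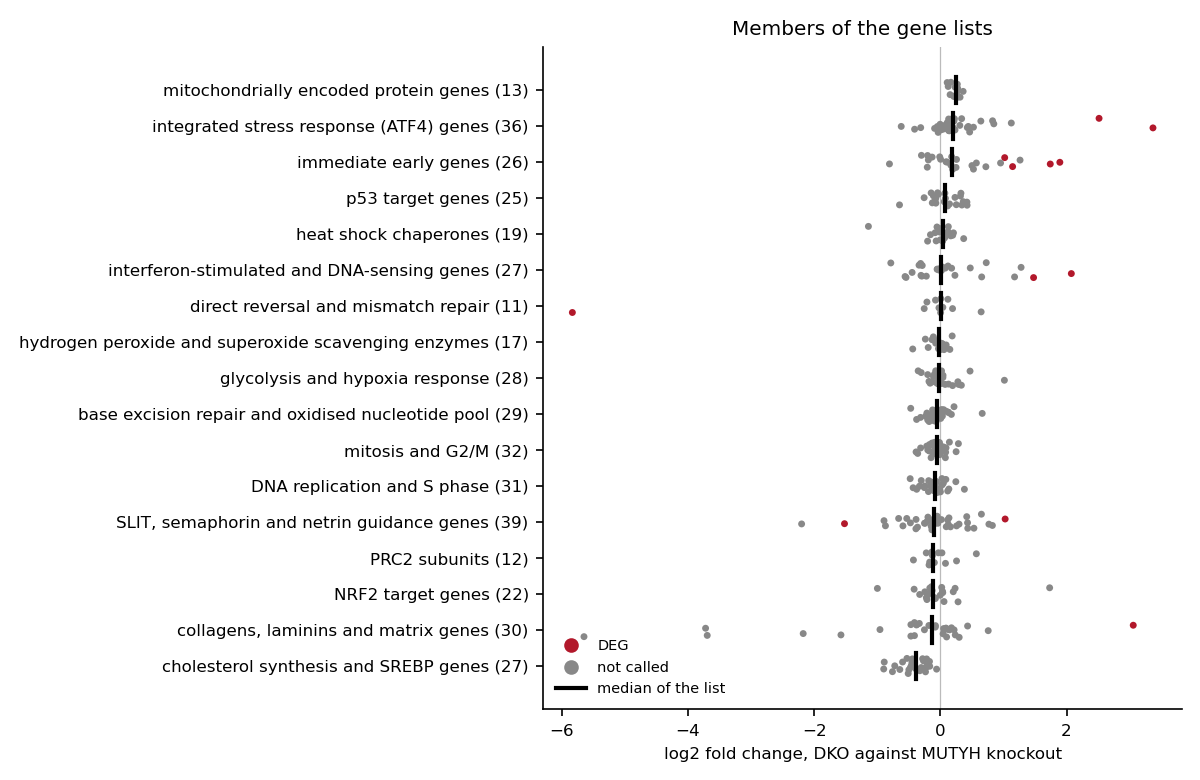
Log2 fold change of DKO against MUTYH knockout for the tested members of 17 gene lists, of which the cholesterol list is shown with 26 of its 27, with DEGs in red, other members in grey and the list median as a black bar. The number of tested members follows each list name, and the medians lie between -0.39 for cholesterol genes and 0.25 for mitochondrially encoded genes.

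Among DEGs with a mean of at least 20 CPM in either genotype there were 12 higher and 10 lower in DKO. The next 3 genes were chosen from them after their values were seen. ALX4, a homeobox factor, had 69.2 and 64.2 CPM in DKO C4 and C14 against 2.37 and 8.37 CPM in C7 and C8, with 69.9 and 11.3 CPM in WT C2 and C11. PROM1, the stem cell surface protein CD133, had 57.9 and 10.7 CPM in DKO C4 and C14 against 1.44 and 0.132 CPM in C7 and C8. CD24, a surface glycoprotein, had 131.8 and 442.9 CPM in DKO C4 and C14 against 77.0 and 93.8 CPM in C7 and C8. In CPM, PROM1 and CD24 differed more between the DKO clones than the lower DKO library did from either MUTYH knockout library.

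Along the genome no chromosome stood out as a whole. The median log2 fold change of a nuclear chromosome lay between -0.05 and 0.05, and the share of tested genes called was highest on chromosome 10, at 3.21%, with no DEG on chromosome 21. In windows of 10 Mb the long arm of chromosome 6 had medians of 0.13 to 0.24 from 110 to 160 Mb. These windows held 21 to 47 tested genes and at most 3 DEGs each, and the C4 and C7 pair gave window medians of 0.12 to 0.40 against 0.05 to 0.11 in the C14 and C8 pair. The end of chromosome 22, from 50 Mb, had the lowest median of all windows with at least 20 tested genes, at -0.28 over 26 genes, with -0.23 in both pairs and no DEG.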

How the data were processed

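RNA-seq was measured in 10 HAP1 libraries. The authors aligned reads to GRCh38 with HISAT2 2.2.1, assigned them to Ensembl genes with featureCounts, and deposited raw counts per gene. Strand and multimapping settings are not given in the sources used here. The table of the 2 H2O2-treated libraries was not used.

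The 8 untreated libraries were grouped by genotype label and fitted together with the edgeR 4.0.16 quasi-likelihood test (R 4.3.3), with TMM normalization, filterByExpr and 4 residual degrees of freedom. Adjusted p values are Benjamini-Hochberg values over all 17881 genes tested. Each library is a separate clone with no second culture, so P values measure the spread between clones. CPM are TMM-normalized, and log2 CPM used a prior count of 2. Precision rests on 22225091 to 22458937 counts per library, and intervals and the floor of 3 counts cover counting error only. Replicate libraries differed by more than sampling noise (chi-square per degree of freedom of 34.1 and 32.2).

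Genes were named by rule: the 12 higher and 8 lower protein-coding DEGs with the smallest P, with groups that do not overlap and a mean of at least 1 CPM in either genotype, called list members, OGG1 and MUTYH, the 5 interaction genes and 5 genes called in both comparisons with the smallest P, and 3 genes of other biotypes. Genes outside this rule are named as members of the lists or marked as picked with their values known. The members and lists were chosen with earlier results of these data known. Positions come from GENCODE 44 by symbol, matched for 38434 of 59453 genes (64.6%). Alternatives were size factors of DESeq2 1.42.0, its Wald test, the current edgeR quasi-likelihood method, other filters, a block for the library pairs, a fit of the 4 libraries alone, and each library left out. The values of some list members are not reported here.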

Additional observations from a re-analysis of the deposited data

Results flagged for a closer look

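THSD7B was the 1 gene whose difference between DKO and the MUTYH knockout differed, after adjustment, from that between the OGG1 knockout and WT. The interaction was 6.31 on the log2 scale (SE 0.43, edgeR adjusted p of 0.0179). THSD7B had 254 and 219 counts in DKO C4 and C14, 5 and 5 in MUTYH knockout C7 and C8, 101 and 137 in OGG1 knockout C1 and C22, and 227 and 191 in WT C2 and C11. Both MUTYH knockout libraries were low, and the other 6 libraries held at least 101 counts. The interaction lay between 6.12 and 6.52 with any 1 of the 8 libraries left out, and its edgeR adjusted p then ran from 0.0778 without OGG1 knockout C22 to 0.245 without MUTYH knockout C7.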

How the results depend on the processing

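The 355 DEGs became 669 with no filter on low counts and 151 with at least 10 counts in every library, which held 349 and 141 of the 355. Leaving out 1 library gave 342 to 508. The 1 gene that passed after adjustment became 50 with the Wald test of DESeq2, 6 with no filter, 0 with the filter of 10 counts, where edgeR gave 437 genes with a raw P no higher than 0.05, and 0 with the 4 libraries alone, where 605 had one, and it was 0 to 0 with a library left out, where 455 to 637 had one. The 358 interaction genes became 719 with no filter and 218 with at least 10 counts, and ran from 216 without WT C2 to 795 without WT C11, with 646 without MUTYH knockout C8. The 1 adjusted interaction gene became 21 with the Wald test, 0 with at least 10 counts, where 331 had a raw P no higher than 0.05 in edgeR, and 0 to 0 with a library left out, where 246 to 922 had one. THSD7B had 5 counts in each MUTYH knockout library, so the filter of 10 counts removed it before testing. Its loss under that filter, in the interaction too, was fixed in advance. The replicate block for the pairs of libraries came from a split in the data and not from the labels. With this block there were 456 DEGs (340 of the 355), 567 interaction genes and 3 adjusted genes. These were THSD7B, FRMD4A (edgeR adjusted p of 0.0395) and PRTG (0.0395). The block was drawn from the same expression values that it was fitted to, and it left 3 residual degrees of freedom. With it 1514 genes had a raw P no higher than 0.05 in edgeR, against 614 in the main fit. The passing of FRMD4A and PRTG is therefore not independent evidence for them. No direction of a named gene's call turned. Of the combinations of named gene and alternative, 349 kept their side of the threshold and 19 lost the call, all in FOS, FOSB, POSTN, SLIT1, SLIT3 and STING1. The cause of these changes was not tested. With 2 clones per genotype and most DEGs below 5 CPM, the depth and the number of clones limit which small differences could be called.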

Other observations

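The inhibitors of DNA binding ID1, ID2 and ID3, targets of BMP signalling that block basic helix-loop-helix factors, were chosen after their values were seen. None reached the fold threshold. ID1 had 37.9 and 35.3 CPM in DKO C4 and C14 and 64.4 and 67.7 CPM in MUTYH knockout C7 and C8. ID2 had 13.8 and 13.7 CPM in DKO against 25.6 and 24.7 CPM, and ID3 had 57.3 and 56.0 CPM against 99.6 and 110.4 CPM. Both DKO libraries lay below both MUTYH knockout libraries for each of the 3, as they did for 14% of all tested genes. The log2 fold changes were -0.85 ± 0.17 for ID1, -0.87 ± 0.18 for ID2 and -0.89 ± 0.17 for ID3 (SE). Their unadjusted P values in edgeR were 0.00133, 0.00177 and 0.000992, and their adjusted p values in edgeR were 0.753, 0.753 and 0.728. With the Wald test of DESeq2 the adjusted p values were 0.0224, 0.0294 and 0.0124, and that of ID2 in the interaction was 0.0498.

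The metallothionein MT1E, likewise chosen after its values were seen, had 44.5 and 50.9 CPM in DKO C4 and C14 and 80.8 and 103.3 CPM in MUTYH knockout C7 and C8. Its groups did not overlap, as for 28% of all tested genes, and it did not reach the fold threshold.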
